A study of Mus musculus with 9 samples.

Results

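The ADAM, ADAMTS and ADAMTS-like genes were described here through all probes of a mouse expression array whose platform gene symbol begins with Adam, Adamts or Adamtsl followed by a digit. The rule found 64 of the 26423 probes, which name 51 of the 17742 named genes: 27 Adam, 19 Adamts and 5 Adamtsl genes. Colon RNA of BALB/c females was measured on 9 arrays, 3 for each of 3 groups. Mock mice were untreated. Sham mice received a peritoneal injection of azoxymethane (AOM, a colon carcinogen; 12.5 mg/kg, day 1). Dextran sodium sulfate (DSS), a detergent-like polymer that damages colon epithelium, was then given at 2.5% in the drinking water, beginning on day 8, as 5 days of DSS and 16 days of plain water, and 3 more cycles followed. Vanillin mice had that same AOM/DSS course plus oral vanillin at 100 mg/kg over 91 days, so no group received vanillin without AOM/DSS. Whether arrays of 1 group come from different animals is not stated in the labels. The p-values therefore measure the scatter among these arrays, which may be partly or wholly technical.

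ADAMs are membrane proteins with a disintegrin and a metalloprotease domain, and the catalytically active ones cut other membrane proteins near the cell surface, which releases growth factors, cytokines and receptors. ADAMTS enzymes are secreted relatives with thrombospondin repeats that cut proteoglycans, procollagens and other matrix proteins, and ADAMTS-like proteins share their repeats without a protease domain. In the gut, ADAM10 and ADAM17 are known for Notch cleavage in crypt cells and for the release of epidermal growth factor receptor ligands and tumour necrosis factor.

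The unit throughout is probe intensity on a linear scale, and changes are differences of log2(intensity + 16) with their standard error (SE) from a limma fit. A probe was called higher or lower at an adjusted p under 0.05, with adjustment over all probes, and each gene is given by its brightest probe unless stated. The colonocyte marker list had 8 of 9 genes measured, none with a group mean below an intensity of 50, so the labelled tissue carried its markers, although 4 of the 8 were called between Sham and Mock. The intestinal transcription factor gene Cdx2 rose from a mean of 473 to 4265, and the chloride exchanger gene Slc26a3 fell from 19645 to 2478. Markers of other tissue moved with the groups to a much larger extent. The summed intensity of 12 squamous epithelium markers was 474204 to 481030 in the Mock arrays, 26703 to 27938 in Sham and 241891 to 297165 in Vanillin. The sum of 8 adipocyte markers was 103979 to 105866, 3264 to 3381 and 92920 to 96333 in the same order. That of 6 skeletal muscle markers was 132005 to 140400, 2792 to 2959 and 52930 to 57434. The low Vanillin sum of squamous markers was that of array 3, where Krt14 was 11506, against 64969 and 63608 in arrays 1 and 2. No intensity exceeded 65509.67. Genes near it included Krt10 in Mock and Vanillin, Lor and Dcn in Vanillin, and Krt13 and the smooth muscle marker Acta2 in Mock. The colonocyte marker Lgals4 lay near it in every group, and Epcam in most arrays. Differences in such genes may be understated. In such bulk RNA, fewer cells of a type and less RNA per cell cannot be told apart, and the part of these tissue differences in the values below was not tested.

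The first question was how the family differed between colons after the AOM/DSS course and untreated colons. In Sham minus Mock, 16 of the 64 member probes were called higher (36.5% of all probes were) and 19 were called lower (29.7%, where 23.2% of all probes were). Together 54.7% of member probes were called, and 59.7% of all probes. Called changes of at least 1 on the log2 scale were made by 8 probes upward and 7 downward, together 23.4% of members and 13.5% of all probes. The arrays of Sham and Mock did not overlap for 37 member probes (57.8%), and for 67.1% of all probes. The median change was -0.01 over member probes and 0.10 over all probes. By brightest probe, 16 genes were higher (31.4%, against 39.3% of all named genes), 14 lower (27.5%, against 25.3%) and 21 not called. In total 58.8% of the member genes were called, and 64.6% of all named genes.

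**Figure D1:**
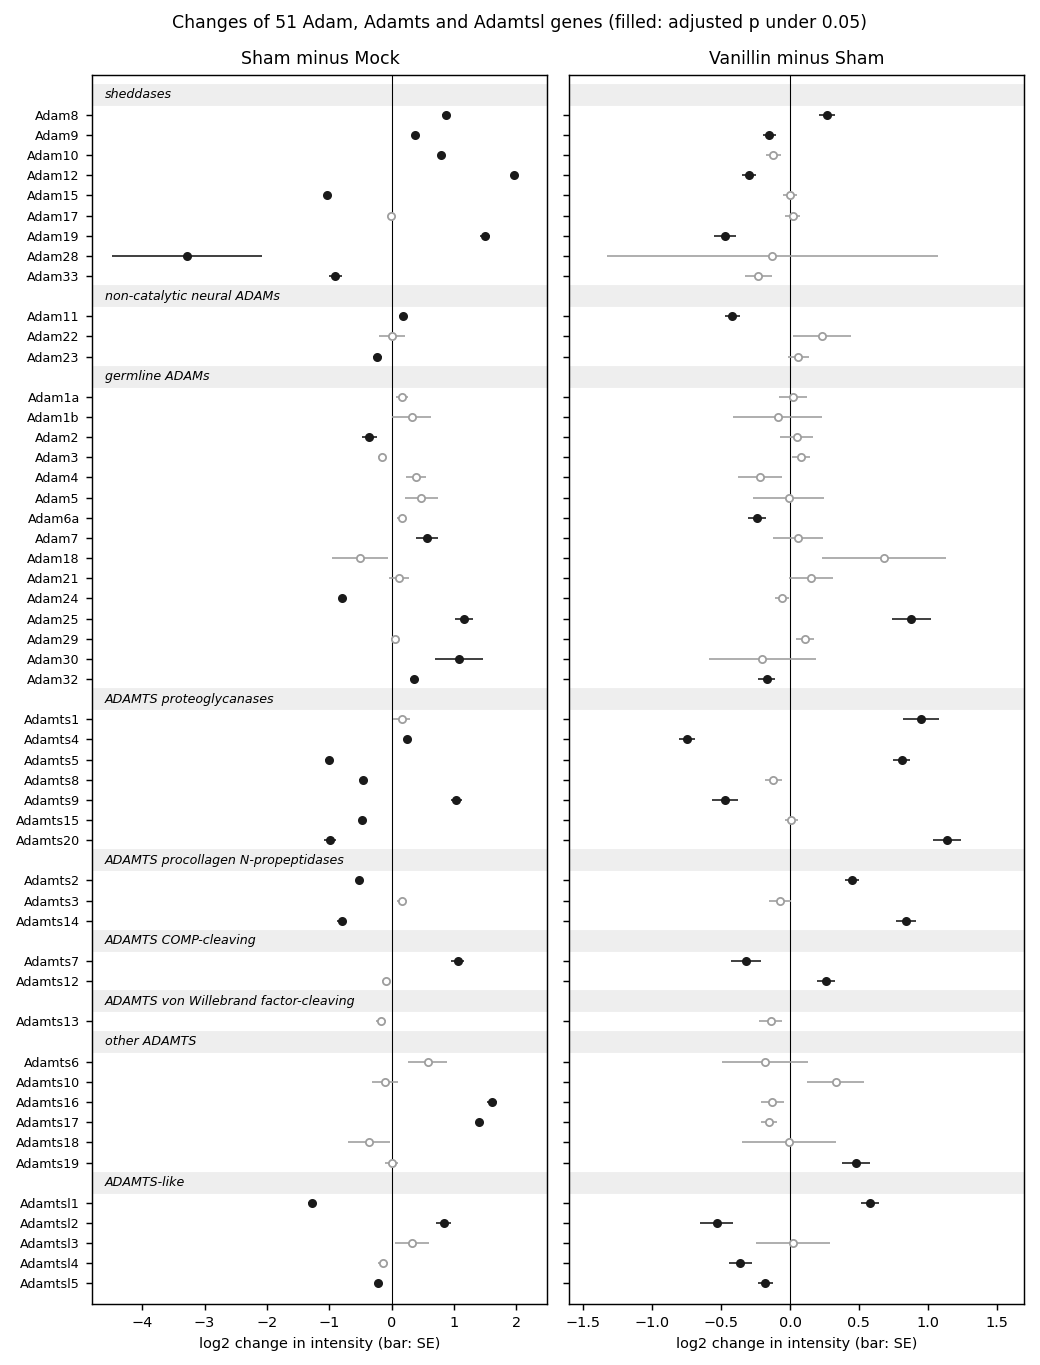
Log2 change in intensity (x axis, bars are SE) of each of the 51 genes on its brightest probe, in Sham minus Mock (left) and Vanillin minus Sham (right), grouped by role, with filled points for an adjusted p under 0.05. In the left panel Adam12, Adamts16, Adam19 and Adamts17 lie farthest to the right, while Adam28, with an SE of 1.2, lies farthest to the left.

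Among the 9 sheddases, the catalytically active ADAMs of somatic tissue, 5 were higher, 3 lower and 1 not called in Sham minus Mock (median 0.37, against 0.11 over all named genes). These were 55.6% higher (against 39.3% of all named genes) and 33.3% lower (against 25.3%). Adam12, known from mesenchymal cells and tumour stroma, had intensities of 144, 136 and 142 in Mock, 614, 608 and 577 in Sham, and 464, 494 and 491 in Vanillin. The 3 groups did not overlap, with Sham highest and Mock lowest. The change was 1.97 (SE 0.05, adjusted p = 1.4e-09), a 3.93-fold difference on this scale. Adam19, which sheds neuregulins, followed with 210, 223 and 218 in Mock, 664, 621 and 644 in Sham, and 507, 469 and 405 in Vanillin, again with no overlap. It rose by 1.50 in Sham (SE 0.078, adjusted p = 2.2e-07).

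Adam8, a protease of granulocytes and macrophages, had 4960, 5231 and 5242 in Mock and 9568, 9765 and 8872 in Sham, so that every Sham array lay above every Mock array (0.87, SE 0.059, adjusted p = 1.6e-06). Of 8 measured neutrophil markers, 7 were called higher (87.5%, against 39.3% of all named genes) and 1 lower (12.5%, against 25.3%) in the same comparison. Their summed intensity was 17611 to 19318 in Mock and 66428 to 68545 in Sham. Of 8 macrophage and monocyte markers, 4 were called higher and 1 lower, with a summed intensity of 29002 to 30022 in Mock and 52413 to 54985 in Sham. The part of either in the Adam8 value was not tested. Adam10, the main Notch sheddase, had 5632, 5774 and 5556 in Mock and 9376, 10430 and 9721 in Sham, without overlap (0.80, SE 0.054, adjusted p = 1.5e-06). Adam9 rose by a smaller amount, from a mean of 13638 to 17575 (0.37, SE 0.047, adjusted p = 0.00013). Adam17, the tumour necrosis factor converting enzyme, had 2737, 2904 and 2737 in Mock and 2838, 2597 and 2898 in Sham. Its groups overlapped, and the change of -0.01 had a 95% interval of -0.13 to 0.12 (adjusted p = 0.903). After cyclic loess normalization it was -0.19 (adjusted p = 0.0165).

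Adam15, an adhesion-linked ADAM of epithelium and endothelium, fell from 2170, 2043 and 2092 in Mock to 1073, 993 and 1009 in Sham (-1.03, SE 0.051, adjusted p = 1.6e-07), and its second probe fell as well (-0.42). Adam33, known from smooth muscle and fibroblasts, had 331, 310 and 295 in Mock and 157, 158 and 164 in Sham (-0.90, SE 0.1, adjusted p = 5.8e-05), and its second probe changed by -1.13. All 6 measured smooth muscle markers were called lower in the same comparison (100.0%, against 25.3% of all named genes). Their median change was -2.02 and their summed intensity 93504 to 94877 in Mock and 40406 to 43125 in Sham. Their part in the Adam33 value was not tested.

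Adam28, which is known from lymphocytes and epididymis, had 3 probes that disagreed. On the brightest it had 934, 878 and 968 in Mock, 211, 217 and 1.22 in Sham, and 178, 195 and 0.889 in Vanillin. A single array in each AOM/DSS group, Sham 3 and Vanillin 3, was near 0 on this probe, and the change of -3.28 carried an SE of 1.2 (adjusted p = 0.0374). Without Sham replicate 3 it was -2.03 and the call was lost (adjusted p = 0.112), as it also was without Mock replicate 1, 2 or 3 (adjusted p = 0.073, 0.0747 and 0.0813). With a pseudocount of 1 the change was -4.31 (adjusted p = 0.128). The second probe was tight within groups, with 552, 519 and 533 in Mock, 178, 145 and 153 in Sham, and 78.9, 69.4 and 74.2 in Vanillin, stepping down from group to group (-1.66 in Sham minus Mock, SE 0.075, adjusted p = 8.7e-08). The third probe had 116, 129 and 121 in Mock and 133, 124 and 112 in Sham, with overlap (0.01, adjusted p = 0.9).

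**Figure D2:**
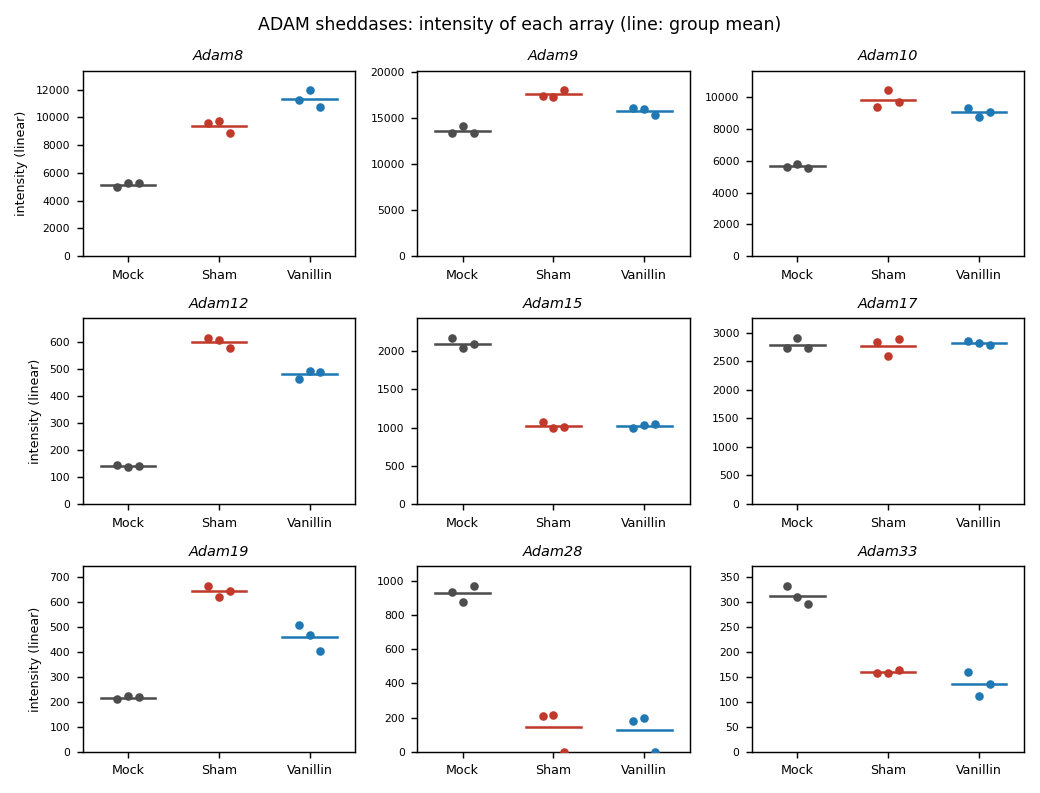
Intensity on a linear axis from 0 for each of the 9 arrays (points, 3 a group) and the group mean (line) for the 9 ADAM sheddases. Adam12 and Adam19 are lowest in Mock and highest in Sham, Adam8 climbs from Mock to Vanillin, Adam17 is near 2800 in all groups, and Adam28 has 1 point near 0 in Sham and in Vanillin.

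The catalytically inactive neural ADAMs changed by 0.23 or less in Sham minus Mock, with Adam11 at 0.18 (adjusted p = 0.0199), Adam23 at -0.23 (adjusted p = 0.0291) and Adam22 at 0.01 (not called). The call of Adam11 was lost without Mock replicate 1 (adjusted p = 0.071) or 3 (adjusted p = 0.0607) and after cyclic loess normalization, where the change was 0.01 (adjusted p = 0.895). That of Adam23 was lost without Mock replicate 2 or 3 (adjusted p = 0.0824 and 0.0715) or Sham replicate 2 (adjusted p = 0.0969). Of 15 ADAMs known from testis and sperm, 4 were higher (26.7%, against 39.3% of all named genes), 2 lower (13.3%, against 25.3%) and 9 not called. Adam25 stood apart among them with 24.9, 20.9 and 14.2 in Mock, 49.1, 69.4 and 75.5 in Sham, and 123, 132 and 139 in Vanillin. The 3 groups did not overlap, and the change in Sham was 1.16 (SE 0.14, adjusted p = 9.1e-05). Adam24 went the other way, from 67.0, 72.9 and 67.2 to 32.9, 31.2 and 34.4 (-0.80, SE 0.051, adjusted p = 1.0e-06). The other called germline members were Adam30 (1.08, adjusted p = 0.0377), Adam7 (0.57, adjusted p = 0.0217), Adam32 (0.36, adjusted p = 0.00059) and Adam2 (-0.36, adjusted p = 0.0333). The Mock arrays of Adam30 were widely spread at 37.7, 9.33 and 80.7, the last above the lowest Sham array of 80.2, and its call was lost when any 1 of 7 arrays was left out (all but Mock replicates 2 and 3, adjusted p = 0.0504 to 0.0919). The Adam7 call was lost after cyclic loess normalization (0.42, adjusted p = 0.0708) and without Sham replicate 2 or 3 (adjusted p = 0.0696 and 0.0612). That of Adam2 was lost without Mock replicate 1, 2 or 3 (adjusted p = 0.0893, 0.0662 and 0.0543) or Sham replicate 2 (adjusted p = 0.0704). Several uncalled germline and orphan members held 1 array far from its group, such as Adam18 with 14.8, 106 and 107 in Sham, Adam1b with 48.3, 156 and 151 in Mock and Adamts6 with 55.0, 143 and 137 in Mock. With all arrays, none of these 3 genes was called in any comparison. Without Mock replicate 1, Adam1b in Vanillin minus Mock turned from 0.23 to -0.24 and was called (adjusted p = 0.0187), and without Sham replicate 1 Adam18 was called there (0.18, adjusted p = 0.0463).

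Of 7 secreted ADAMTS proteoglycanases, which cut aggrecan, versican and related core proteins, 2 were higher, 4 lower and 1 not called in Sham minus Mock. These were 28.6% higher (against 39.3% of all named genes) and 57.1% lower (against 25.3%). Adamts9 had 224, 233 and 253 in Mock and 531, 437 and 542 in Sham, with no overlap (1.04, SE 0.093, adjusted p = 1.0e-05). Adamts4, an aggrecanase, rose by 0.25 (SE 0.058, adjusted p = 0.00454), but after cyclic loess normalization the change was 0.06 and not called (adjusted p = 0.412). Adamts5, another aggrecanase, fell from 127, 127 and 122 in Mock to 53.3, 60.8 and 49.7 in Sham (2.01-fold lower on this scale, SE 0.063 in log2, adjusted p = 8.8e-07). Adamts15 fell from a mean of 3505 to 2533 (-0.47, SE 0.046, adjusted p = 2.2e-05) and Adamts8 fell by 0.46, with -0.37 on its second probe. The brightest probe of Adamts20 fell from 407, 425 and 396 to 192, 174 and 234 (-0.99, SE 0.1, adjusted p = 2.5e-05), but its other probes, at 0.15 and -0.01, were not called. Adamts1, an inflammation-inducible proteoglycanase, had 1900, 2030 and 2055 in Mock and 2089, 1886 and 2813 in Sham, with overlap (0.16, SE 0.13, adjusted p = 0.314).

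Of the procollagen N-propeptidases, which trim procollagen before fibrils form, Adamts14 and Adamts2 fell. Adamts14 had 311, 280 and 266 in Mock and 146, 165 and 159 in Sham (-0.80, SE 0.071, adjusted p = 9.2e-06). Adamts2 had 1674, 1649 and 1653 in Mock and 1175, 1139 and 1150 in Sham (-0.52, SE 0.052, adjusted p = 2.2e-05), with -0.19 and an adjusted p = 0.0534 on its second probe. That probe was called after cyclic loess normalization (-0.38, adjusted p = 0.00217) and without Mock replicate 3, Sham replicate 1, or Vanillin replicate 1 or 3 (adjusted p = 0.0464, 0.0486, 0.0317 and 0.0392). The third, Adamts3, stayed below an intensity of 50 in every group mean (0.17, adjusted p = 0.0895), and was called without Sham replicate 1 (0.25, adjusted p = 0.0204).

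Adamts7, which cuts cartilage oligomeric matrix protein, rose from 113, 115 and 117 to 279, 211 and 290 (1.06, SE 0.11, adjusted p = 2.1e-05), whereas its relative Adamts12 was dim at 30.1, 28.0 and 31.2 in Mock and 28.7, 23.2 and 29.1 in Sham (-0.09, adjusted p = 0.233). Of 6 less characterised ADAMTS genes, Adamts16 and Adamts17 rose (33.3%, against 39.3% of all named genes). The other 4 were not called (Adamts6, Adamts10, Adamts18 and Adamts19). Adamts16 had 36.9, 39.6 and 36.1 in Mock and 166, 146 and 133 in Sham (1.61, SE 0.084, adjusted p = 2.3e-07), and Adamts17 had 386, 396 and 376 in Mock and 1116, 991 and 1049 in Sham (1.41, SE 0.057, adjusted p = 3.9e-08). In both genes the Sham arrays lay far above the Mock arrays. Adamts10 was called lower without Sham replicate 3 (-0.37, adjusted p = 0.0447). Adamts13, the von Willebrand factor-cleaving protease made mainly in liver, had 42.3, 51.7 and 49.1 in Mock and 37.7, 47.0 and 36.9 in Sham (-0.17, adjusted p = 0.101), and the change was called at -0.26 without Sham replicate 2 (adjusted p = 0.0189) and at -0.24 without Mock replicate 1 (adjusted p = 0.0429). The ADAMTS-like genes went both ways. Adamtsl2, a microfibril-binding protein, rose from 34.6, 55.2 and 49.1 to 106, 90.0 and 88.4 (0.84, SE 0.12, adjusted p = 0.00029), and Adamtsl1 fell from 140, 127 and 134 to 47.7, 46.0 and 43.2 (-1.28, SE 0.062, adjusted p = 1.4e-07). Adamtsl5 fell on both probes (-0.22 and -1.01).

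**Figure D3:**
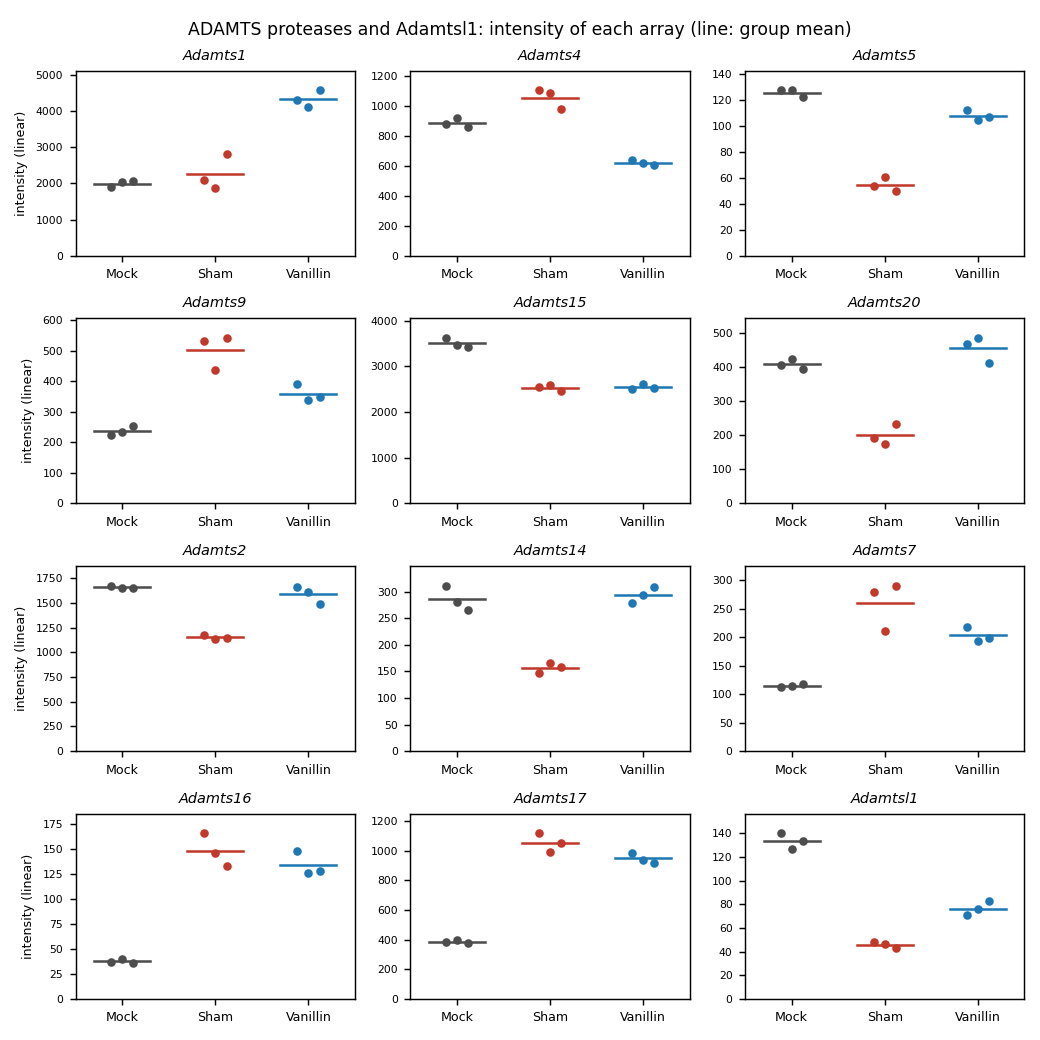
Intensity on a linear axis from 0 for each of the 9 arrays (points, 3 a group) and the group mean (line) for 11 ADAMTS genes and Adamtsl1. Adamts7, Adamts9, Adamts16 and Adamts17 are lowest in Mock, Adamts2, Adamts5, Adamts14, Adamts20 and Adamtsl1 are lowest in Sham, and Adamts1 is highest in Vanillin.

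The comparison of Vanillin with Sham asked what differed when mice on the AOM/DSS course also received vanillin. It shares the Sham arrays with the comparison above, so an unusual Sham value pushes both in opposite directions, and for that reason Vanillin minus Mock is given alongside. Of the 64 member probes, 13 were called higher (20.3%, where 15.7% of all probes were) and 15 lower (23.4%, where 32.2% of all probes were). Together 43.8% of member probes were called, and 47.9% of all probes. By brightest probe, 10 genes were higher (19.6%, against 17.4% of all named genes) and 12 lower (23.5%, against 35.1%), in total 43.1% of the member genes and 52.5% of all named genes. After cyclic loess normalization the split was 16 higher and 7 lower, so the share of higher among called members moved from 46.4% to 69.6%. All probes moved the same way under that normalization, to 22.5% called higher and 19.1% lower. A called change of at least 1 was seen for 1 member probe (1.56%, and 4.47% of all probes). The arrays did not overlap for 32 of the 64 probes, and for 56.3% of all probes. The median change was -0.01 over member probes and -0.09 over all probes.

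By role, 3 of the 7 proteoglycanases were higher with vanillin (42.9%) and 2 lower (28.6%). The higher ones included Adamts20, whose second probe was called lower (-0.43). Of the 3 procollagen N-propeptidases 2 were higher (66.7%). Of the 5 ADAMTS-like genes 3 were lower (60.0%) and 1 higher (20.0%). Of the 15 germline ADAMs 1 was higher (6.67%) and 2, Adam32 (-0.17) and Adam6a (-0.24), were lower (13.3%). Over all named genes 17.4% were higher and 35.1% lower. The Adam32 call was lost after cyclic loess normalization (-0.04, adjusted p = 0.602) and without any 1 array other than Vanillin replicate 1 (adjusted p = 0.0605 to 0.122). With the replicate number as a block it was also lost (adjusted p = 0.058 over all arrays, 0.094 with the 6 arrays compared). The Adam6a call was lost after cyclic loess normalization (-0.08, adjusted p = 0.359) and without Sham replicate 2 or 3 (adjusted p = 0.0556 and 0.0559) or Vanillin replicate 2 or 3 (adjusted p = 0.0564 and 0.0609), and with the block on the 6 arrays (adjusted p = 0.0754). Of the 6 less characterised ADAMTS genes, Adamts19 was called higher (0.48, adjusted p = 0.0043), and so was Adamts10 without Sham replicate 3 (0.59, adjusted p = 0.0087). Adamts1 had 2089, 1886 and 2813 in Sham and 4308, 4113 and 4572 in Vanillin, every Vanillin array lying above all Sham and all Mock arrays (0.95, SE 0.13, adjusted p = 0.00033). Against Mock it was 2.16-fold higher (1.11, adjusted p = 9.1e-05). Adamts4 moved opposite to Adamts1, from 1105, 1085 and 982 in Sham to 638, 617 and 604 in Vanillin (-0.75, SE 0.058, adjusted p = 9.6e-06), which also lay below the Mock values of 879, 918 and 860 (-0.50, adjusted p = 8.3e-05). Adamts9 fell from a mean of 503 to 359 (-0.47, SE 0.093, adjusted p = 0.00301) and stayed above Mock (0.57, adjusted p = 0.00079). The difference between Adamts16 in Vanillin and Sham was -0.13 (95% interval -0.32 to 0.06, adjusted p = 0.236), and that of Adamts17 was -0.15 (95% interval -0.28 to -0.02 before adjustment, adjusted p = 0.0596). The Adamts17 difference was called without Sham replicate 2 (-0.19, adjusted p = 0.0304) or without Vanillin replicate 1 (-0.18, adjusted p = 0.0439). Both remained higher in Vanillin than in Mock (1.48 and 1.26).

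Several members that were lowest in Sham had higher values in Vanillin, some of them near those in Mock. Adamts14 had 279, 294 and 308 in Vanillin (0.84 against Sham, SE 0.071, adjusted p = 1.8e-05), overlapping the Mock arrays (0.04 against Mock, adjusted p = 0.683). The brightest probe of Adamts20 had 470, 486 and 413 (1.14 against Sham, SE 0.1, adjusted p = 2.5e-05), but its second probe was called lower (-0.43; adjusted p = 0.0546 with the replicate block on the 6 arrays) and the third not called, so these probes do not give the gene 1 direction. Adamts5 had 112, 104 and 107 (0.81 against Sham, SE 0.063, adjusted p = 1.1e-05) and stayed below Mock (-0.19, adjusted p = 0.0304), a call lost without Mock replicate 1, 2 or 3 (adjusted p = 0.0753, 0.0823 and 0.0527) or Vanillin replicate 2 or 3 (adjusted p = 0.0956 and 0.0734). Adamts2 had 1663, 1615 and 1488 (0.45 against Sham, adjusted p = 0.00012), and Adamtsl1 had 70.6, 75.7 and 82.4 (0.58, adjusted p = 8.1e-05), between its Sham and Mock values.

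Marker lists of several other tissues were also lowest in Sham. Relative to the Mock mean, the median squamous epithelium marker was at -6.04 to -5.99 in the Sham arrays and -1.09 to -0.85 in Vanillin, and the median adipocyte marker at -4.86 to -4.70 and -0.31 to -0.28. The median fibroblast marker was at -0.42 to -0.37 in Sham and 0.18 to 0.26 in Vanillin. The colonocyte markers went both ways, from -2.98 to 3.13 in Sham minus Mock. In Vanillin minus Sham 5 of the 8 were called lower (62.5%, against 35.1% of all named genes) and none higher (median -0.33). These 5 members were chosen for this display after their values were seen, and the part of the other tissues in their values was not tested.

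**Figure D4:**
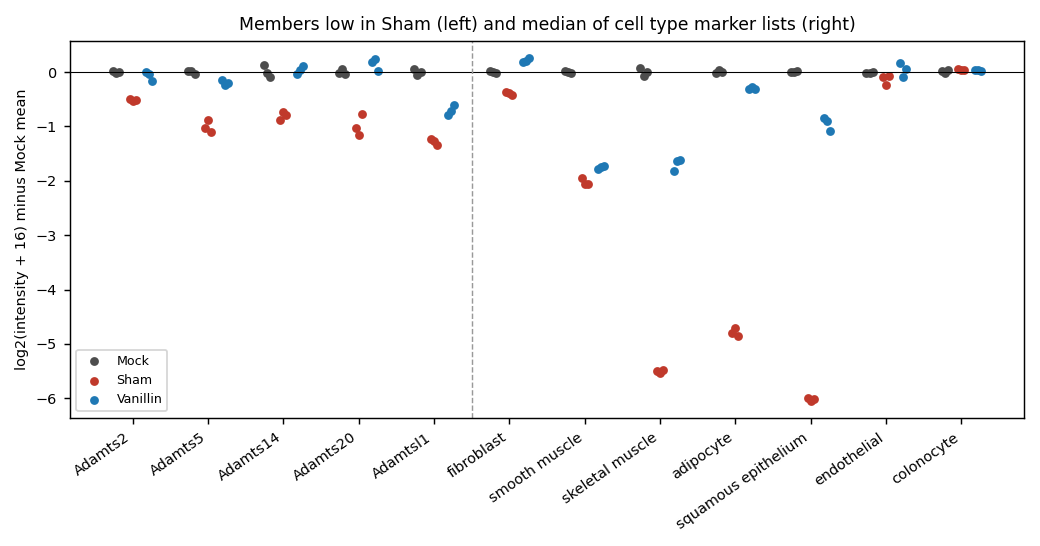
Log2(intensity + 16) minus the Mock mean (y axis) for each array (points, 3 a group) of 5 members lowest in Sham and, right of the dashed line, for the median gene of 7 marker lists. The 5 members fall by 0.49 to 1.34 in Sham, while adipocyte, skeletal muscle and squamous epithelium markers fall by more than 4 and are higher again in Vanillin.

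Among the sheddases, 1 was higher in Vanillin minus Sham (11.1%, against 17.4% of all named genes), 3 lower (33.3%, against 35.1%) and 5 not called. Adam8 rose further, to 11281, 11938 and 10749 (0.27, SE 0.059, adjusted p = 0.00532), with every Vanillin array above every Sham array. The summed neutrophil markers were 117306 to 123913 in Vanillin, against 66428 to 68545 in Sham. The macrophage and monocyte markers were 56359 to 59909, against 52413 to 54985, and the part of either was not tested. Adam19 fell by 0.47 (SE 0.078, adjusted p = 0.00104) and Adam12 by 0.30 (SE 0.05, adjusted p = 0.00102), both staying above Mock (1.03 and 1.67). The Adam12 call was lost after cyclic loess normalization (-0.14, adjusted p = 0.0533). Adam9 fell by 0.15 (adjusted p = 0.0261), a call lost after cyclic loess normalization (adjusted p = 0.221), with the 6 arrays compared alone (0.0522) and without Sham replicate 1 or 3 (adjusted p = 0.0502 and 0.0738) or Vanillin replicate 2 or 3 (adjusted p = 0.057 and 0.0766). It was lost too with the replicate block on the 6 arrays (adjusted p = 0.0897).

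Adam10 (-0.12, 95% interval -0.24 to 0.01, adjusted p = 0.105), Adam15 (0.00, interval -0.11 to 0.12, adjusted p = 0.964, but 0.15 and called after cyclic loess normalization, adjusted p = 0.0498) and Adam17 (0.02, interval -0.10 to 0.15, adjusted p = 0.767) were not called between Vanillin and Sham. Adam33 was not called on its brightest probe (-0.23, adjusted p = 0.103) but was called at -0.34 without Vanillin replicate 1 (adjusted p = 0.0111), while its second probe was called higher (0.38), a call lost without Sham replicate 1, 2 or 3 (adjusted p = 0.0612, 0.0581 and 0.0544) or Vanillin replicate 1 (adjusted p = 0.0709), or with the replicate block over all arrays (adjusted p = 0.0527). For Adam28 the brightest probe was not called (-0.13, SE 1.2), the second fell by 0.95 (SE 0.075, adjusted p = 1.2e-05) and the third rose by 0.28 (SE 0.067, adjusted p = 0.00863). Adam25 rose further (0.88, SE 0.14, adjusted p = 0.00095) and reached 2.04 against Mock, from a mean intensity of 20.0 to 131. Adam11 fell by 0.42 (adjusted p = 0.00029), Adamtsl2 by 0.53 (adjusted p = 0.00709) and Adamtsl4, a microfibril-associated protein, by 0.36 (adjusted p = 0.00782), the last of which was not called after cyclic loess normalization (-0.19, adjusted p = 0.108). Adamts7 fell by 0.32 (adjusted p = 0.0327), a call lost after cyclic loess normalization (-0.18, adjusted p = 0.224) and without Sham replicate 1 or 3 (adjusted p = 0.107 and 0.106) or Vanillin replicate 2 or 3 (adjusted p = 0.0979 and 0.0852). Adamts12 rose by 0.26 (adjusted p = 0.0085) at a mean intensity of 35.3, and its second probe was not called (0.02).

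Set against untreated colon, the vanillin-treated AOM/DSS colon had 15 member probes higher (23.4%, where 24.5% of all probes were) and 18 lower (28.1%, where 26.2% of all probes were). The 51.6% of member probes called stood against 50.7% of all probes, and the arrays did not overlap for 41 member probes (64.1%, and 60.4% of all probes). By brightest probe, 14 genes were higher (27.5%, against 26.8% of all named genes) and 13 lower (25.5%, against 28.5%), in total 52.9% of the member genes and 55.3% of all named genes. Called changes of at least 1 were made by 7 member probes upward and 4 downward, together 17.2% of members and 7.69% of all probes. Adam25, Adam12, Adamts16 and Adamts17 made the largest increases, followed by Adam8 (1.13, SE 0.059) and Adamts1. The largest decreases were those of Adam28 (-3.41 on the brightest probe, SE 1.2, adjusted p = 0.0372, and -2.61 on the second, while the third was called higher, 0.29, adjusted p = 0.00634), Adam33 (-1.13), Adam15 (-1.02), Adam24 (-0.86), Adamtsl1 (-0.70) and Adamts8 (-0.59). The call of the brightest Adam28 probe was lost without Vanillin replicate 3 (-2.22, adjusted p = 0.117) and without Mock replicate 1, 2 or 3 (adjusted p = 0.0736, 0.077 and 0.0828). Adamts13 fell here (-0.32, adjusted p = 0.0111) on a probe at 36.0, 32.8 and 36.3 in Vanillin. The procollagen N-propeptidases Adamts2, Adamts3 and Adamts14 were not called in this comparison. Of the 9 sheddases 5 were higher (55.6%, against 26.8% of all named genes) and 3 lower (33.3%, against 28.5%).

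The probes of 1 gene did not always report the same change. Of 10 genes with several probes, 4 had all probes called one way in Sham minus Mock (Adam15, Adam33, Adamts8 and Adamtsl5), 3 had some probes called and others not (Adam28, Adamts2 and Adamts20), 3 had none called (Adam22, Adamts3 and Adamts12) and none had probes called in opposite directions. In Vanillin minus Sham, 2 genes had probes called in opposite directions, Adam28 and Adamts20, and in Vanillin minus Mock 1 gene did, Adam28. Which transcripts each probe detects is not given in the sources used here.

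**Figure D5:**
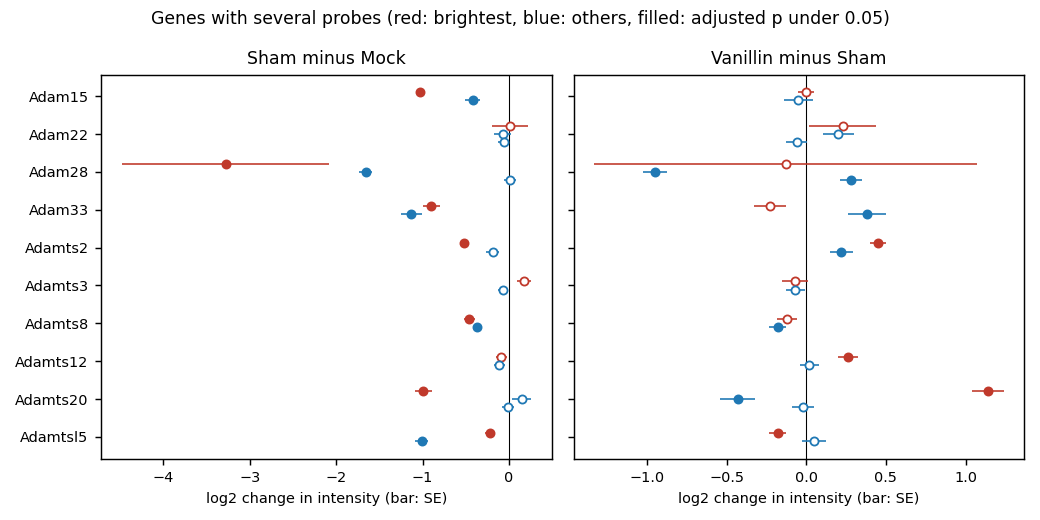
Log2 change in intensity (x axis, bars are SE) of every probe of the 10 genes with more than 1 probe, in Sham minus Mock (left) and Vanillin minus Sham (right), with the brightest probe in red and filled points for an adjusted p under 0.05. The probes of Adam28 range from -3.28 to 0.01 on the left, and those of Adamts20 from -0.43 to 1.14 on the right.

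The promoters of 5 members are shown because these genes of 1 family moved in different directions. RefSeq windows (build GRCm38.p6) were at hand for 27 of the 51 genes, in 29 windows, and the 250 bases before each annotated start were searched on both strands for AP-1 (TGANTCA), TCF/LEF (CTTTGAT), NF-κB (GGG and TTTCC with any 2 bases between them) and the TATA box (TATAAA). Capitals mark a match. Adamts1 and Adamtsl2, which moved in opposite directions with vanillin, each had a TATA box match, whose first base lay 32 and 30 bases before the start. Adam19, which rose in Sham, had an AP-1 match in 1 of its 3 windows, beginning 131 bases before that start. Adamts14 and Adamts20, lowest in Sham on their brightest probes, had no match.
Adamts1, chr16:85803114-85803363, minus strand: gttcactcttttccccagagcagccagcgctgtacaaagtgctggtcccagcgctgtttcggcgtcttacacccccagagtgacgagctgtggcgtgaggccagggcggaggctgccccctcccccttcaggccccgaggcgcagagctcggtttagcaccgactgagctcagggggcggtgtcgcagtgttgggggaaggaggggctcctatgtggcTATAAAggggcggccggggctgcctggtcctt
Adamtsl2, chr2:27079129-27079378, plus strand: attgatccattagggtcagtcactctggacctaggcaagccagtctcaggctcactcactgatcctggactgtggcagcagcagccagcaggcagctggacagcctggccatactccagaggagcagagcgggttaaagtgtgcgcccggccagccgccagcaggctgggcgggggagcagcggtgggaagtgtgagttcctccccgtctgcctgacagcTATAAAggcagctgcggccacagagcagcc
Adam19, chr11:46055734-46055983, plus strand: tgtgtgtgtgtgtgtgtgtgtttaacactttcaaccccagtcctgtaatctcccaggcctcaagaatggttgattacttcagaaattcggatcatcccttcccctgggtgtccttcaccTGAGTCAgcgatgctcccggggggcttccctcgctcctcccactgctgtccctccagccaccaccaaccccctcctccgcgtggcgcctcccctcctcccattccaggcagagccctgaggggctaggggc
Adamts14, chr10:61273420-61273669, minus strand: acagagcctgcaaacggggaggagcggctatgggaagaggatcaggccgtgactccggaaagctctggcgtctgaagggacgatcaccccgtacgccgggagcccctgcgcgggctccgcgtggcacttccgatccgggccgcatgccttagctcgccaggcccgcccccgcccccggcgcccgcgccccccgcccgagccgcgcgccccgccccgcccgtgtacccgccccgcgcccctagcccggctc
Adamts20, chr15:94404351-94404600, minus strand: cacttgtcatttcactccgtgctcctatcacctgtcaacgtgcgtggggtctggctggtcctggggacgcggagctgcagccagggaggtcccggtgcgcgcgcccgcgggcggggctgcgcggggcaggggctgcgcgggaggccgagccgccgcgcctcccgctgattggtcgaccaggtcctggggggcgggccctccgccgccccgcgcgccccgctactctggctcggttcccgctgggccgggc

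Over all 32851 RefSeq windows of that length, 12.4% held the TATA box letters and 6.75% the AP-1 letters, against 13.8% and 10.3% of the 29 member windows. Other members with AP-1 letters were Adam25, which rose in Sham, and Adam29, which was not called in Sham minus Mock. Other members with TATA box letters were Adam29 and Adam6a, neither called in Sham minus Mock. The TCF/LEF and NF-κB letters were in 3.21% and 1.41% of all windows and in none of the member windows, which says nothing about those factors beyond these letters and windows. The Adamts14 and Adamts20 windows were rich in G and C (76.4% each), the median over member windows being 63.2% and over all windows 52.4%.

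Genes that act with these proteases were taken from lists written for this purpose. Of 7 inhibitors, 2 were higher, 2 lower and 3 not called in Sham minus Mock (median -0.12, against 0.11 over all named genes). These were 28.6% higher (against 39.3% of all named genes) and 28.6% lower (against 25.3%). With vanillin 1 was higher (14.3%, against 17.4%), 2 lower (28.6%, against 35.1%) and 4 not called. Timp1, an inhibitor of many metalloproteases including ADAM10, rose by 2.87 (SE 0.051, adjusted p = 1.3e-10), and fell by 0.58 with vanillin (adjusted p = 2.4e-05). Timp2 rose from a mean of 288 to 555 in Sham (0.91, adjusted p = 9.8e-06) and was at 130 in Vanillin (-1.97 against Sham, adjusted p = 1.2e-07). Timp3, the matrix-bound inhibitor of ADAM17 and of aggrecanases, fell by 0.24 (adjusted p = 0.0228), a call lost without Mock replicate 2 or 3 or Sham replicate 1 or 3 (adjusted p = 0.0674, 0.0672, 0.0772 and 0.0786). Timp4 was not called (-1.07, adjusted p = 0.0745), but was at -0.41, -1.38 and -1.42 and called without Sham replicate 1, 2 or 3 (adjusted p = 0.0307, 0.0444 and 0.0347). Reck, a membrane-anchored inhibitor, fell by 0.83 (adjusted p = 1.9e-06) and rose by 0.55 with vanillin (adjusted p = 7.6e-05).

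Of 13 partners and maturation enzymes, 4 were higher, 4 lower and 5 not called in Sham minus Mock, none of them by as much as 1. The 61.5% called was near the 64.6% of all named genes. With vanillin 3 were higher (23.1%, against 17.4% of all named genes), 3 lower (23.1%, against 35.1%) and 7 not called. The tetraspanin gene Tspan14, whose product carries ADAM10 to the surface, rose by 0.69 (adjusted p = 1.4e-06), and its relative Tspan17 fell by 0.51 (adjusted p = 8.3e-06). Frmd8, a stabiliser of the iRhom and ADAM17 complex, rose by 0.49 (adjusted p = 1.5e-05), the proprotein convertase Pcsk6 fell by 0.60 (adjusted p = 9.7e-06), and Rhbdf2, which encodes iRhom2, was not called (-0.08, adjusted p = 0.25) except after cyclic loess normalization (-0.26, adjusted p = 0.00366).

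Of 27 measured genes whose products ADAMs are known to shed, 13 were higher, 9 lower and 5 not called in Sham minus Mock. These were 48.1% higher (against 39.3% of all named genes) and 33.3% lower (against 25.3%), together 81.5% called (against 64.6%). The median was 0.11, as over all named genes. In Vanillin minus Sham 10 were higher (37.0%, against 17.4% of all named genes), 6 lower (22.2%, against 35.1%) and 11 not called (median 0.09, against -0.11). Egf fell by 2.71 (adjusted p = 1.4e-10), the tumour necrosis factor receptor gene Tnfrsf1b rose by 2.61 (adjusted p = 3.9e-10), the decoy receptor gene Il1r2 fell by 2.08 (adjusted p = 1.5e-09) and the adhesion gene Icam1 rose by 1.82 (adjusted p = 4.4e-09). Tnf rose by 0.72 (adjusted p = 7.7e-07), next to an Adam17 that was not called. With vanillin, Il1r2 rose by 1.78, the interleukin-6 receptor gene Il6ra by 1.30 (adjusted p = 1.7e-07), Egf by 0.85 and the Notch ligand gene Jag1 by 0.76.

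Of 14 matrix genes whose products ADAMTS enzymes are known to cut or bind, 6 were higher, 3 lower and 5 not called in Sham minus Mock (median 0.01), and 7 were higher, 1 lower and 6 not called with vanillin (median 0.23, against -0.11 over all named genes). Col1a1, Col1a2, Col3a1 and Dcn are also on the fibroblast marker list. Of its 8 genes 7 were called higher with vanillin (87.5%, against 17.4% of all named genes, median 0.66). The part of this in the matrix genes was not tested. The proteoglycan gene Vcan rose by 1.41 in Sham (adjusted p = 2.9e-07) and Fbn2 by 0.71. Comp fell by 1.04 on a dim probe, from a mean of 59.7 in Mock to 20.9 in Sham. Col1a1 fell by 1.37 in Sham, from a mean of 239 to 82.4, and rose by 0.65 with vanillin. Col1a2 went the other way in Sham, from a mean of 3345 to 4630 (0.46, adjusted p = 0.00072). Col3a1 rose both in Sham and with vanillin (0.46 and 0.66). Of 8 family relatives outside the symbol rule, 4 were higher, 2 lower and 2 not called in Sham minus Mock. Adamdec1, a decysin of gut macrophages and fibroblasts, rose from a mean of 2981 to 14936 (2.32, adjusted p = 8.1e-09) and was not called with vanillin (-0.15, adjusted p = 0.136). The membrane protease gene Mmp14 rose by 1.19, and the brush border meprin gene Mep1a fell by 1.48 in Sham and by a further 1.05 with vanillin. The other meprin gene, Mep1b, was not called in Sham minus Mock (0.04, adjusted p = 0.524). Its reversal there after cyclic loess normalization is given below. With vanillin Mep1b fell by 0.98 (adjusted p = 4.6e-07).

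At the dim end, 11 member probes had a mean below an intensity of 50 in every group (16.8% of all probes did). By brightest probe these were Adam3, Adam21, Adamts3, Adamts12, Adamts13 and Adamts18. Among them Adamts12 and Adamts13 were each called in 1 comparison, as given above.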

How the data were processed

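Each array was hybridised with Cy5-labelled amplified RNA, per the labels, and its deposited values are linear probe intensity. The authors used limma, per the submitters' processing notes, in a role not stated there. The deposited values show background subtraction (3 to 14 probes per array below 0) and quantile normalization across the 9 arrays (medians 319.6 to 320.1). Neither scanner nor probe filters are stated in the sources at hand. Negative values were set to 0 and log2(intensity + 16) was fitted for all 26423 probes and 9 arrays with limma 3.58.1 in R 4.3.3 (group means, lmFit and eBayes, two-sided, 6 residual degrees of freedom). Benjamini-Hochberg adjustment ran over all probes within a comparison. The fit was tested on simulated data. Replicate numbers come from the sample titles. Same-numbered Vanillin and Sham arrays deviated together (correlations of 0.169, 0.126 and 0.201) and were treated as pairs in an alternative fit, while pairs with Mock arrays did not (-0.288 to -0.0162). With 3 arrays a group, their number limits precision. Correlations between arrays of a group were 0.9952 to 0.9976.

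Symbols came from the platform's probe table, and all 64 member probes matched a current mouse symbol. Named members are, per comparison, the 6 largest called increases and the 6 largest decreases without overlap between groups, plus a preset list. Pathway genes are up to 4 per list by smallest p, plus a few preset ones, and Adam1b, Adam2, Adam6a, Adam7, Adam18, Adam22, Adam23, Adam29, Adam30, Adam32, Adamts3, Adamts6, Adamts10, Adamts18, Adamts19, Adamtsl5, Col1a2, Dcn, Cdx2, Slc26a3, Epcam, Krt10, Krt13, Krt14, Lor, Lgals4 and Acta2 were named after their values were seen. Members and lists were chosen with earlier results of these data known. Protein sequences were not used here. Figures were drawn with matplotlib 3.10.9.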

Additional observations from a re-analysis of the deposited data

How the results depend on the processing

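Of the 6 counts of member probes called higher or lower, 3 moved by more than 1.5 times under an alternative. Vanillin minus Mock had 23 higher with array weights (15 otherwise), Vanillin minus Sham had 8 higher without the dimmest 30% of probes, which leaves 42 member probes (13 of 64 otherwise), and 7 lower after cyclic loess normalization (15 otherwise). The shares of all tested probes called that way were, in the same order, 32.7% (24.5% otherwise), 19.4% (15.7% otherwise) and 19.1% (32.2% otherwise). With each array left out in turn, Sham minus Mock had 14 to 17 higher and 17 to 21 lower, Vanillin minus Sham 11 to 13 higher and 10 to 17 lower, and Vanillin minus Mock 13 to 16 higher and 16 to 20 lower. With the replicate block, the counts were 16 and 19, 11 and 14, and 15 and 19 in the order above, and with the block on the 6 Vanillin and Sham arrays, chosen after seeing the data, 12 and 11. For the member values printed in the report, every call that a block ended is given there. Of 153 values (51 member genes on the brightest probe, 3 comparisons), 103 kept their call under every alternative. The value of Adam1b in Vanillin minus Mock, not called, reversed to -0.24 without Mock replicate 1 and ranged up to 0.47 with another array left out. In Sham minus Mock, 3 uncalled pathway genes reversed after cyclic loess normalization, Cx3cl1 to -0.17, Fbn1 to -0.13 and Mep1b to -0.14, where the median of all probes moved by -0.10. For values printed above, calls that an array or a normalization decided are given beside them. Counting the probe whose updated symbol is Adam20, or leaving out dim members, was added after seeing the data and moved no count by over 1.5 times.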
